A study of Caenorhabditis elegans with 2 samples.

Results

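The 10 genes described here encode basic helix-loop-helix (bHLH) factors of Caenorhabditis elegans: 5 of the Achaete-Scute type (hlh-4, hlh-3, hlh-6, hlh-14 and hlh-19), 4 of the Atonal superfamily (lin-32, ngn-1, cnd-1 and hlh-13) and the E-protein gene hlh-2. They were chosen by name as proneural genes and their partner, out of 19973 protein-coding nuclear genes in the annotation. All 10 were found in it. The window of a gene ran from 5000 bp upstream of its start to its end, and a region belonged to the gene when its summit lay in that window.

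HLH-4 binding was mapped by ChIP-seq, the sequencing of DNA precipitated with a protein, in 2 biological replicates that form 1 group. The animals were whole hermaphrodite first-stage (L1) larvae of strain OP523, collected 6 hours after synchronization by bleaching and starvation. Its genotype is unc-119(tm4063) III with the integrated transgene wgIs523, which makes HLH-4 with GFP and FLAG at its C terminus, and the antibody was against GFP. All animals carried the transgene, no group without it was analysed here, and neither its promoter nor the genomic sequence it contains is given in the labels.

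Proneural bHLH proteins bind DNA as dimers with an E protein, which in this worm is HLH-2, the Daughterless orthologue. The dimers recognise E-boxes, the hexamers CANNTG, and Achaete-Scute factors favour those with G or C in the centre. In other animals proneural genes are known to regulate themselves and each other, which is the question asked here of HLH-4: whether its own gene, its partner gene or other proneural genes carried its binding.

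Of the 10 genes, 1 carried an optimal peak, hlh-4 itself, where 4.45% of all protein-coding genes had one in the same window. All animals carried the hlh-4 transgene, and its part in the hlh-4 peak was not tested. The optimal peaks are the 545 regions that passed the authors' irreproducible discovery rate analysis. At the other 9 genes every region fell below that set. No region of the pooled list at these 9, 0 of 19, had a G/C-centred E-box within 50 bp of its summit. These E-boxes are CAGCTG, or CACCTG, which reads as CAGGTG on the opposite strand. Of all pooled regions 6.28% had one, so 0 of 19 is near that share. Weaker regions were listed at these 9 genes, but the lists hold background as well as peaks. The deposited −log10 q-value was 2.02 at the hlh-4 peak and 0.614 at the strongest pooled region of the 9, at lin-32. In any list the highest at the 9 was 0.719, at hlh-2 in replicate 1. The region over the hlh-4 start had 1.85 in replicate 2 but 0.309 in replicate 1, below both of these values. A rank or an overlap between replicates at the 9 genes therefore does not by itself show binding. Read depth is unknown, so the lists do not give the limit of detection.

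In the 10 windows, 4 G/C-centred E-boxes lay within 50 bp of a summit in at least 1 list, 1 at hlh-4 and the 3 below. These show where such a site met a weaker region at other proneural genes, and are printed 5' to 3' on the strand of the gene, from the ce11 build, with the E-box in capitals.
hlh-19, upstream, chrX:557996-558025, minus strand: cttccgtcggttCAGCTGtaaaactcgcgg
ngn-1, upstream, chrIV:2630558-2630587, minus strand: tcttgttaatcaCAGGTGtcaatgtttgta
ngn-1, farther upstream, chrIV:2631657-2631686, minus strand: gtaagacggaaaCACCTGaacagtgccttt

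The hlh-4 site was the single one of the 4 near a summit in the pooled list, and it was near one in replicate 1 and in replicate 2 as well. The hlh-19 site was near a summit of replicate 2 alone. Of the ngn-1 sites, 1 was near a summit of replicate 1 and the other near a summit of replicate 2.

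The gene hlh-4, known for setting the identity of the ADL sensory neurons, lies at III 9737472 to 9739054 on the minus strand. Its optimal peak had a signal value of 54.7 and ranked 370 in the pooled list of 30000 regions, in which a rank of 1 is the highest signal value. The signal value is the authors' own per region, and its normalization is not stated. Ranks were therefore taken within each list of 30000 regions, and lists were compared by these ranks rather than by signal values.

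The replicates differed at the hlh-4 start. The region over it had a signal value of 10.5 and rank 9765 in replicate 1, and a signal value of 45.9 and rank 178 in replicate 2. With the 545 strongest regions of each replicate in place of the optimal peaks, hlh-4 was called in replicate 2 and not in replicate 1. Of all protein-coding genes, 4.39% were called in replicate 1 and 4.37% in replicate 2. No other of the 10 genes was called in either.

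A second region over hlh-4 lay inside an intron, 659 bp downstream of the start, with rank 2171 in the pooled list and no G/C-centred E-box. Here the order of the replicates was the opposite, with rank 621 in replicate 1 and rank 12953 in replicate 2. A CAAATG hexamer lay 3 bp from the pooled summit. In all, the hlh-4 window held 6 regions in replicate 1 and 4 in replicate 2. It also held 3 further G/C-centred E-boxes: 1 in an intron 134 bp downstream of the start, 1 in a coding exon 1489 bp downstream, and 1 at 3346 bp upstream inside the neighbouring gene T05G5.1. Summits within 50 bp were absent at these 3 in every list.

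**Figure D1:**
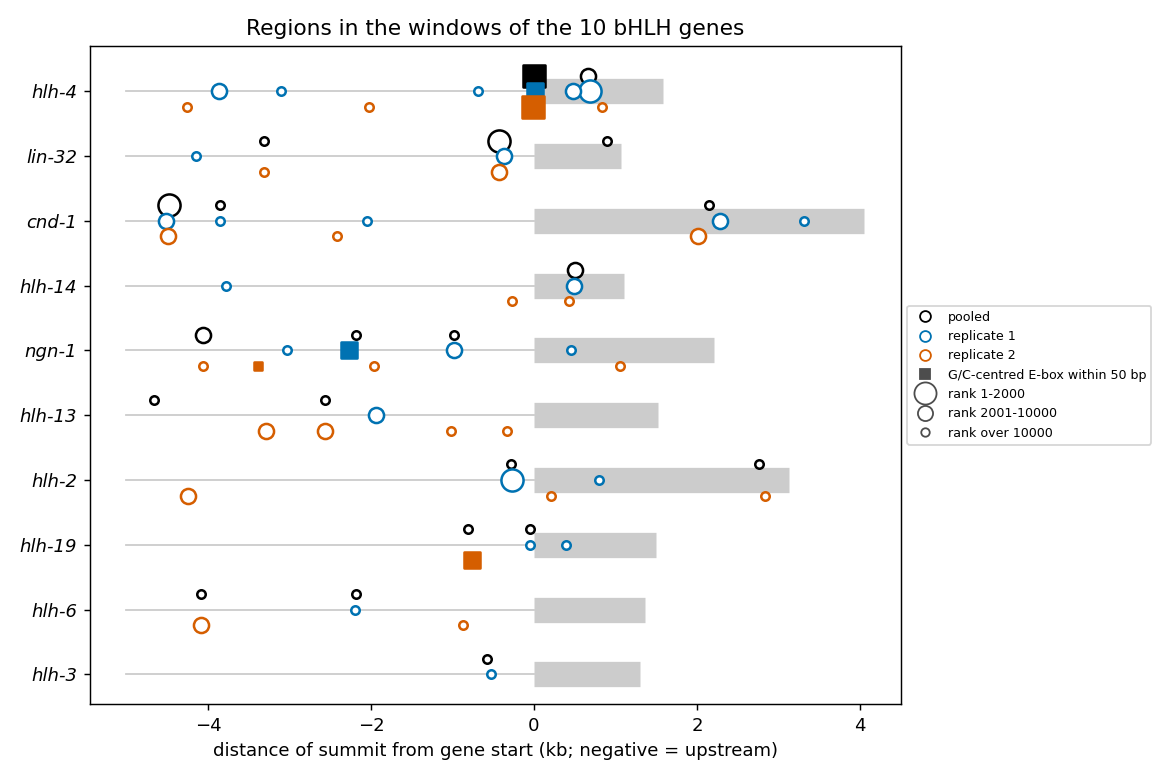
Summits in the window of each gene, by distance from the gene start in kb (negative is upstream), for the pooled list (black), replicate 1 (blue) and replicate 2 (orange); grey bars are gene bodies, filled squares have a G/C-centred E-box within 50 bp, and larger symbols have higher ranks. Filled squares in all 3 lists are seen at the hlh-4 start, whereas ngn-1 and hlh-19 have them in single replicates.

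Because the strain carries a tagged hlh-4 transgene, the density of regions around the gene was counted as well. Regions of any strength were denser there than around most genes. Within 20000 bp of the hlh-4 start there were 26 summits in the pooled list, where the other 9 bHLH genes had 4 to 23 and the median protein-coding gene had 12. In replicate 1 there were 30 summits, a count reached by 0.03% of protein-coding genes, where the other 9 bHLH genes had 5 to 20. In replicate 2 there were 19 summits, a count reached by 11.1% of genes and inside the range of the other 9, which had 9 to 20. The count was thus above that of the median gene, 12, in each list. It exceeded the range of the other 9 bHLH genes in replicate 1 and the pooled list, not in replicate 2. Of the 26 pooled regions, 12 were among the 5000 strongest, 2 were optimal peaks, and 5 had a G/C-centred E-box. Of all 30000 pooled regions, 5000 are by definition in that strongest class, 545 were optimal peaks and 1885 (6.28%) had the E-box. The part of the transgene in the number and strength of these regions was not tested.

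**Figure D2:**
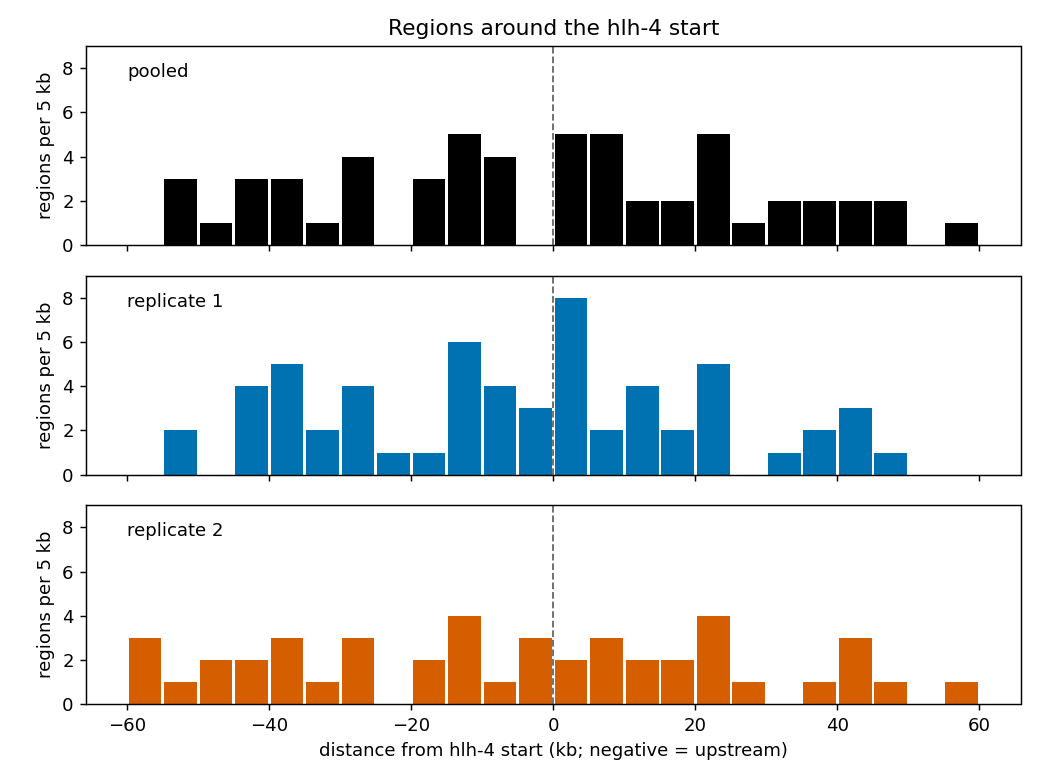
Number of summits per 5 kb bin by distance from the hlh-4 start in kb (negative is upstream, dashed line is the start), in the pooled list and in each replicate. In the first 5 kb downstream replicate 1 has 8 summits and replicate 2 has 2.

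The E-protein gene hlh-2, which encodes the common dimer partner, had no optimal peak. It lies on chromosome I, from 7190788 to 7193920 on the minus strand. The strongest pooled region lay 283 bp upstream of its start, with a signal value of 16.5 and rank 13357. A region at least as strong as the strongest of hlh-2 was found at 59.5% of all protein-coding genes in the pooled list, at 9.06% in replicate 1 and at 44.5% in replicate 2. In replicate 1 the overlapping region, 264 bp upstream, ranked 1193, and no region of replicate 2 overlapped it. The strongest region of replicate 2 at hlh-2 ranked 8322 and lay elsewhere, 4250 bp upstream. The 4 G/C-centred E-boxes of the window were all upstream of the start, at 118, 1675, 2531 and 4197 bp. None was within 50 bp of a summit, although the last was 53 bp from the replicate 2 summit.

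Of the Achaete-Scute genes, hlh-3, hlh-6 and hlh-19 had the weakest regions in the pooled list. At hlh-3 (II 9086608 to 9087908, plus strand), which acts in motor neurons of the egg-laying circuit, the single pooled region ranked 20449, 577 bp upstream. It overlapped a region ranked 24186 in replicate 1, and replicate 2 held no region in the window. At hlh-6 (II 9613463 to 9614828, minus strand), a gene needed for pharyngeal glands, the 2 pooled regions ranked 15798 and 16359. Both lay in introns of neighbouring genes, dnj-20 and hal-3, and each was found in 1 replicate, the first at rank 3404 in replicate 2 and the second at rank 26570 in replicate 1.

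The hlh-19 gene (X 555792 to 557295, minus strand) had the most G/C-centred E-boxes of the 10 windows, 7, or 1.08 per kb against 0.47 per kb over the 6 chromosomes. Its strongest pooled region ranked 15477, 808 bp upstream and nearer to the start of nas-38 than to that of hlh-19. The overlapping region of replicate 2 ranked 5926, with the CAGCTG printed above 47 bp from its summit, while no region of replicate 1 overlapped it. A second pooled region, 43 bp upstream of hlh-19, ranked 19232 and was found in replicate 1 at rank 14943.

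Among the Achaete-Scute genes other than hlh-4, hlh-14 had the strongest region in the pooled list and in replicate 1. In replicate 2 the strongest regions of hlh-6, at rank 3404, and hlh-19, at rank 5926, were stronger than that of hlh-14, and the replicate ranges of hlh-14 overlapped those of both. The gene acts in neuroblasts that give rise to neurons of the tail. Its gene lies at II 5737785 to 5738895 on the minus strand. The region lay in an intron 507 bp downstream of the start, with a signal value of 21.8, and was found in both replicates. It ranked 4674 in the pooled list, 5419 in replicate 1 and 14150 in replicate 2. The summit window of 101 bases is shown because the E-box hexamer near its middle is of the CACATG class, which is not G/C-centred, on chromosome II of ce11 at chrII:5738338-5738438, minus strand, with capitals at the hexamer.
hlh-14: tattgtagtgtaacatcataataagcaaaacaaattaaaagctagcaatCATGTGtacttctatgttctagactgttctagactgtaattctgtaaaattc
The single G/C-centred E-box of the hlh-14 window, a CAGCTG 853 bp upstream, was 584 bp or more from any summit. With 1 site in 6111 bp, this window had the lowest density of such sites among the 10.

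Of the 9 genes without an optimal peak, the Atonal-superfamily genes lin-32 and cnd-1 had the strongest pooled regions. The gene lin-32, an Atonal orthologue needed for touch and male ray neurons, lies at X 2229055 to 2230122 on the minus strand. Its strongest region lay in intergenic sequence 431 bp upstream of the start, with a signal value of 31.0 and rank 1100 in the pooled list. The overlapping region had a signal value of 10.6 and rank 9376 in replicate 1, and a signal value of 16.5 and rank 2979 in replicate 2, so neither replicate had it among its 545 strongest. Of all protein-coding genes, 8.33% had a region at least as strong in the pooled list, 49.95% in replicate 1 and 19.8% in replicate 2. The other pooled regions of lin-32 were weak: one in its coding exon, 893 bp downstream, ranked 11098 and was found in neither replicate, and one 3314 bp upstream ranked 29955. The summit window of the strongest region held no CANNTG hexamer of any class. It is printed from ce11, chrX:2230503-2230603, minus strand, as the strongest pooled region at the 9 genes; in replicate 1 the region upstream of hlh-2, at rank 1193, was stronger.
lin-32: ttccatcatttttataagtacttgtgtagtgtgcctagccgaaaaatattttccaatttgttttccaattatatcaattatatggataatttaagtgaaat

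The NeuroD orthologue cnd-1, which acts in motor neuron development, lies at III 5240591 to 5244639 on the minus strand. Its strongest region had a signal value of 28.5 and rank 1498 in the pooled list, and was found at rank 2023 in replicate 1 and at rank 6761 in replicate 2. The summit lay 4482 bp upstream, in the 3' UTR of the neighbouring gene sumv-1, near the far edge of the window. With 2000 bp upstream in place of 5000 bp, the strongest cnd-1 region ranked 21095. That region, 2144 bp downstream of the start in the 5' UTR, was also found in both replicates, at rank 9018 in replicate 1 and rank 9945 in replicate 2. Neither summit had an E-box of any class within 50 bp. The remaining pooled region, 3847 bp upstream and ranked 17486, held a CACGTG, an E-box with C and G in the centre that is not counted among the G/C-centred ones here, and overlapped a region of replicate 1 alone.

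The neurogenin gene ngn-1 (IV 2626062 to 2628271, minus strand) had 3 pooled regions, all in upstream intergenic sequence, and they ranked 7202, 11268 and 12041. The regions lay 4055, 2178 and 979 bp upstream. Of these, the one at 2178 bp was found in both replicates, at rank 5813 in replicate 1 and 18304 in replicate 2. Its replicate 1 summit, 2263 bp upstream, was 38 bp from the first ngn-1 E-box printed above, while the pooled summit was 123 bp from it and the replicate 2 summit 345 bp. The second ngn-1 E-box was 12 bp from a replicate 2 summit of rank 11437, with no region of the pooled list or replicate 1 overlapping that region.

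The Ptf1a-type gene hlh-13 (X 4249249 to 4250766, plus strand) had 2 pooled regions, ranked 11408 and 26046, and neither was found in both replicates. Its strongest region in any list was a replicate 2 region of rank 2495, 3288 bp upstream, which overlapped none in the pooled list or in replicate 1. In replicate 1 the single region of the window ranked 7789. Both of the pooled summits lay nearer to the start of F48D6.4 than to that of hlh-13.

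**Figure D3:**
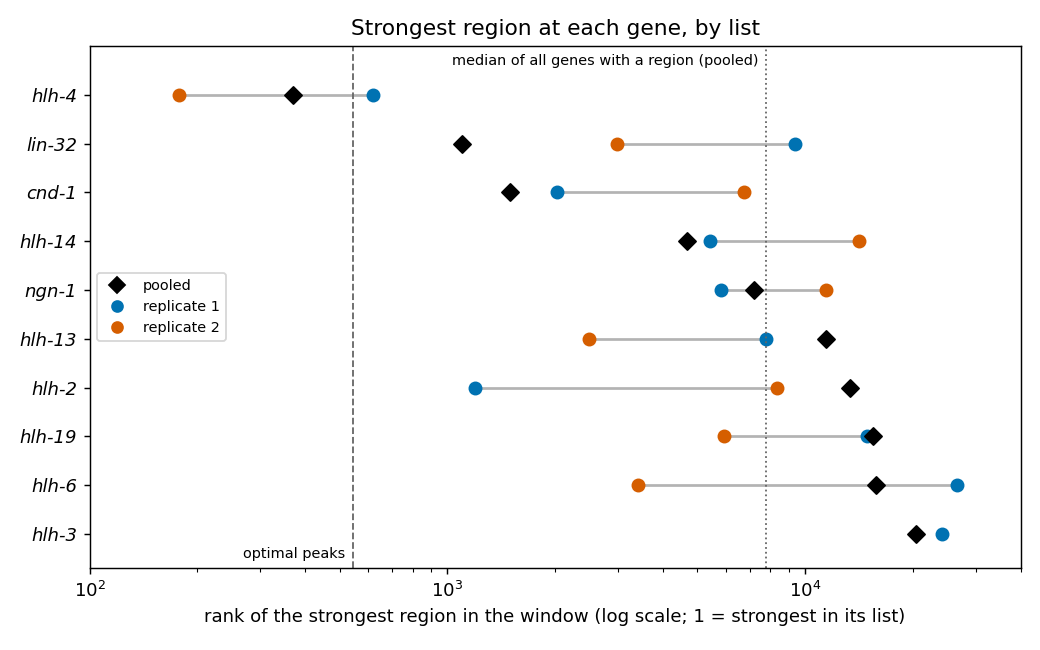
Rank of the strongest region in the window of each gene (log scale, 1 is the strongest in its list) in the pooled list (diamonds) and in each replicate (circles, joined by a grey line). The dashed line marks rank 545, the last optimal peak, and the dotted line the pooled median of all genes with a region, 7787. The hlh-4 circles, at 178 and 621, are different regions, over the start in replicate 2 and in the intron in replicate 1, where the region over the start ranks 9765; hlh-3 has no replicate 2 region.

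Ordered by the strongest pooled region, the genes ran hlh-4, lin-32, cnd-1, hlh-14, ngn-1, hlh-13, hlh-2, hlh-19, hlh-6 and hlh-3. The strongest hlh-4 regions, ranked 621 in replicate 1 and 178 in replicate 2, were stronger than the strongest region of any other of the 10 genes in the same replicate or the other, but they lie at different places, the intron and the start. At either single place hlh-4 was not apart: the ranks 9765 and 178 over the start, and 621 and 12953 over the intron, span those of lin-32, 9376 and 2979. Between neighbours in the rest of the order, from lin-32 and cnd-1 down to hlh-6 and hlh-3, the replicate ranges overlapped, so those neighbours did not differ beyond their spread. The missing replicate 2 region of hlh-3 was counted as weaker than all listed ones. At other genes too, such as hlh-2 and hlh-13, the strongest regions of the 2 replicates were at different places.

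Against the other genes the 10 did not stand apart by number of regions. All 10 had a pooled region of some rank in the window, as did 84.0% of protein-coding genes. The windows, 68.8 kb in all, held 21 pooled regions, or 3.05 per 10 kb against 3.01 per 10 kb over the windows of all genes. The median rank of the strongest region was 9305 at the 10 genes and 7787 at all genes with a region in the pooled list. The direction was the opposite in each replicate, with 6801 at the 10 genes and 7711 at all genes in replicate 1, and 5926 at the 9 genes with a region and 7811 at all genes in replicate 2. Among the 2000 strongest pooled regions, 3 genes (hlh-4, lin-32 and cnd-1) had one in the window, beside 14.1% of all genes. The count of 3 of 10 is above that share, but it rests on few genes.

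The share of the 21 pooled regions found in both replicates, and the share with an E-box, were near those of all pooled regions. In both replicates an overlapping region was found for 7 of the 21 (33.3%, exact Clopper-Pearson 95% interval 14.6% to 57.0%), against 31.4% of all pooled regions. A further 6 were found in replicate 1 alone, 6 in replicate 2 alone and 2 in neither. Without hlh-4, 5 of 19 pooled regions were found in both replicates. A G/C-centred E-box was near the summit in 1 of 21 (4.76%, exact interval 0.12% to 23.8%), against 6.28% of all pooled regions. Over all pooled regions both shares were highest in the strongest rank class. At ranks 1 to 545, 49.7% had the E-box and 98.9% were in both replicates. In the weakest rank class, the last 10000 ranks, 4.84% had the E-box and 11.4% were in both replicates. Given the rank class of each of the 21 regions, the shares over all regions correspond to 7.35 regions in both replicates and 1.67 with the E-box. Intervals cover counting error over regions only.

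**Figure D4:**
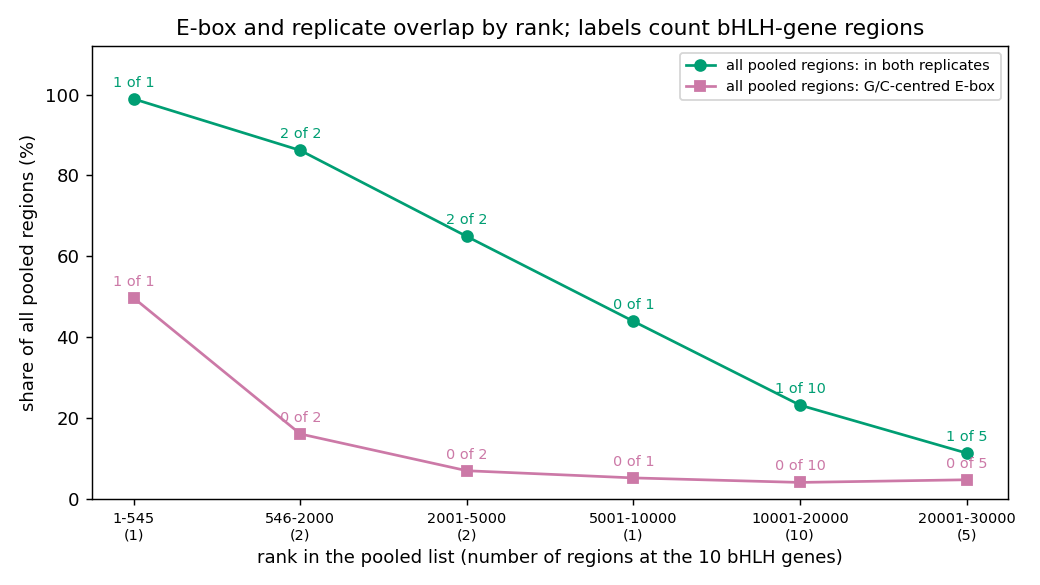
Share of all pooled regions found in both replicates (green) and with a G/C-centred E-box within 50 bp of the summit (pink), in percent, by rank class; labels give the corresponding counts among the 21 regions at the bHLH genes. The 2 weakest classes hold 10 and 5 of the 21, and 10000 each of all 30000 pooled regions, so most of all regions lie there too.

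The 10 windows held 39 G/C-centred E-boxes, 19 of the CACCTG class and 20 CAGCTG, or 0.57 per kb, against 0.47 per kb over the 6 chromosomes, with a range from 0.16 per kb at hlh-14 to 1.08 per kb at hlh-19. Of the 39, 35 had no summit of any list within 50 bp. The 4 others lay at hlh-4, hlh-19 and ngn-1. In the pooled list 1 of the 39 sites (2.56%) was near a summit, against 4.31% of the 46600 such sites in the genome.

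Of the 21 pooled summits at the bHLH genes, 15 were upstream of the gene and 6 lay in the gene body. Most of the window sequence was itself upstream, 5000 bp per gene out of 68.8 kb at the 10 genes. The split therefore shows no preference for either side. Intergenic sequence held 11, introns 4, 3' UTRs 3, 5' UTRs 2 and coding exons 1. In 14 of the 21 the nearest protein-coding gene start was that of the bHLH gene itself. The other 7 were nearer to a neighbour, among them both summits at hlh-6 and both at hlh-13. These places were not set against the shares over all genes, so they are descriptions only.

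Beyond these genes, optimal peaks were counted at 3 related lists. Of 31 other bHLH genes, 3 had an optimal peak in the window (9.68%), beside the 4.45% over all genes. These were hlh-30, the TFEB orthologue, hif-1, the hypoxia-inducible factor, and hlh-27, a member of the REF-1 family of Hairy-related repressors. The hlh-30 summit, 1877 bp upstream, had a CACCTG E-box and ranked 279 in the pooled list, 461 in replicate 1 and 244 in replicate 2. The hif-1 summit, 4800 bp upstream and nearer to F38A6.4, had 2 such E-boxes and ranked 245. The 2 optimal peaks upstream of hlh-27, at 3321 and 3543 bp, had none and lay nearer to the start of ins-13.

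Of 19 genes of the Notch pathway and REF-1 family, through which proneural genes are restrained in other animals, 1 had an optimal peak (5.26%), again hlh-27. Of 40 transcription factors of neuronal identity, 2 had one (5.00%). These were the Pax gene pax-3, with an intronic summit 4157 bp downstream of the start, a CACCTG E-box and rank 176, and the zinc-finger gene egl-43, with a summit 3144 bp upstream, rank 202 and no such E-box. The peak at pax-3 ranked 242 in replicate 1 and 180 in replicate 2, closer between replicates than the hlh-4 peak. Each of the 3 list counts was the same with the 545 strongest regions of either replicate alone, and the last 2 shares are near the share over all genes. The 9.68% at the other bHLH genes is above that share, but it rests on 3 genes. Of these, hif-1 and hlh-27 had peaks nearer to the starts of other genes.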

How the data were processed

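The deposited files are headerless peak lists in narrowPeak format, made by the authors from alignments of each replicate, or of both replicates pooled, with a control, per the README text deposited beside them. The optimal peaks derive from these lists. For the aligner, peak caller and versions, nothing is given in the sources used here, and depth is unknown. Each region has a deposited signal value, used for ranks within a list, and a deposited −log10 q-value, not used to select regions. Region lists hold peaks and background, 30000 regions each. Lists on ce11 were used; on ce10 only the optimal peaks were counted (542).

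Summits were taken from the deposited offset and compared with the WBcel235 sequence and the Ensembl release 115 annotation, both ce11 coordinates. Regions were called shared at an overlap of 1 bp. E-boxes had to lie wholly within 50 bp of the summit. The scripts (Python 3.11.15, pandas 2.3.3, scipy 1.17.1) were tested on a made-up chromosome with known answers. The only design is 1 group of 2 biological replicates, so values are descriptions with no test between groups. The 10 genes were all named, and of the 3 lists each gene with an optimal peak. Members and lists were chosen with earlier results of these data known. In the alternatives, windows, E-box rules, overlap, peak threshold and replicates were changed. The sequence at the hlh-4 peak is not reported here.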

Additional observations from a re-analysis of the deposited data

How the results depend on the processing

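The count of genes with an optimal peak, 1 of 10, was the same with 2000 or 10000 bp upstream, with the gene body alone, with summits given to the nearest gene start, and with the strongest regions of replicate 2. It was 0 with the upstream 5000 bp alone, since the hlh-4 summit lies 6 bp downstream of the start, and 0 with the stronger 50% of the optimal peaks, in which rank 370 is not included. With the 2000 strongest pooled regions it was 3. Leaving out 1 replicate gave 0 to 1. The count of pooled regions with a G/C-centred E-box, 1 of 21, was 1 with 25 bp either side of the summit or 2000 bp upstream, 3 with 100 bp, 9 with any CANNTG and 2 with CACGTG counted too, and 2 to 3 in single replicates. The count found in both replicates, 7, was 5 when 50% of the region had to be covered or with 2000 bp upstream, and 4 with summits within 100 bp. In a single replicate it was 13 to 13, since only 1 overlap is then asked for. Around hlh-4 there were 14 regions within 10000 bp and 52 within 50000 bp, which are shorter and longer stretches, and 19 to 30 within 20000 bp in single replicates. The list counts were the same in single replicates. With 2000 bp upstream the strongest pooled region ranked 12041 at ngn-1, and hlh-6 and hlh-13 had none; with 10000 bp it ranked 6582 at hlh-2 and 11742 at hlh-3. The alternatives for the strongest rank, with CACGTG, with 1 replicate asked for, and for lists in single replicates were chosen after seeing the data. No paired analysis was possible because the samples form 1 group. A count around hlh-4 on ce10 was not run. Depth is unknown, so what it limits cannot be given.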
